A study of Mus musculus with 8 samples.

Results

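Glutamate reaches a synapse through a short chain of proteins, and 8 genes of that chain were followed here in the ventral pallidum (VP) of the mouse. They were taken by gene symbol from 14353 genes with values, and all 8 were present once in the table and were above 1 CPM (a library's reads for a gene scaled to a common library total) in at least 3 libraries. They cover 3 groups of roles. Slc17a6, Slc17a7 and Slc17a8 encode vGluT2, vGluT1 and vGluT3, the vesicular transporters that load glutamate into synaptic vesicles. Slc1a1 and Slc1a2 encode EAAC1 and GLT-1, which carry glutamate back from the extracellular space, the first mostly in neurons and the second mostly in astrocytes. Glul, Got1 and Glud1 encode glutamine synthetase, the cytosolic aspartate aminotransferase and glutamate dehydrogenase.

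In the brain, vGluT1 is typical of cortical and hippocampal projection neurons, vGluT2 of thalamic, hypothalamic and other subcortical excitatory neurons, and vGluT3 of scattered neurons that often release a second transmitter. Astrocytes take up released glutamate, convert it to glutamine with glutamine synthetase and hand the glutamine back to neurons, where it becomes glutamate again. The VP is mainly a GABAergic nucleus, in which glutamatergic (VPGlu) neurons are a minority.

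VP tissue was collected as 4 pools named VP2.2, VP1.6, VP2.11 and VP2.6, and RNA from 2 fractions of each, TRAP and INPUT, was sequenced, giving 8 libraries. The pools held 38 untreated mice (15 male and 23 female, 7 to 11 per pool, sexes mixed), aged 9 to 12 weeks in VP1.6 and 10 to 16 weeks in the other 3 pools. Both fractions came from the same mice, homozygous for VGluT2-Cre and heterozygous for Rpl22, the RiboTag allele that adds an HA tag to a ribosomal protein wherever Cre has acted. TRAP is the RNA held on beads by that tag, labelled as glutamatergic neurons, and INPUT is RNA of the lysate, labelled as neurons and glia together, although the methods also speak of an unbound fraction. Cre follows Slc17a6 in this line, so a cell that used the gene only earlier in life would also be tagged, and there is no library from mice without Cre. The comparison asks which glutamate-handling transcripts are more or less abundant on the ribosomes of these neurons than in the tissue as a whole. In bulk RNA, fewer cells of a type and less RNA per cell cannot be told apart.

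Read totals could be worked out only for VP2.2, with an estimated 12.9 M reads in TRAP and 39.0 M in INPUT, and VP2.6, with 13.5 M and 26.8 M. Each library correlated with the mean of the others of its fraction at 0.939 to 0.990 across genes. Markers set the frame for the labels. The 5 pan-neuronal genes summed to 19040 to 27470 CPM in TRAP and 5480 to 10590 in INPUT, mostly Snap25. Rbfox3, another of them, was higher in TRAP only in the fit without the pool as a block. The 5 oligodendrocyte genes summed to 900.1 to 1631 CPM in TRAP against 3506 to 3807 in INPUT. Of these Mag went the other way, at 104.7 against 69.7 CPM. Its log2 fold change was 0.61 (limma adjusted p = 0.035, and 0.072 with the pool as a block). Of the 3 GABAergic genes, Slc32a1, the vesicular GABA transporter, was lower in TRAP at 10.9 against 25.6 CPM, with a log2 fold change of −1.26 (limma adjusted p = 0.0027, and 0.0055 with the pool as a block). Gad1 and Gad2, the GABA-synthesising enzymes, did not pass the test and made up most of the summed level of the 3, 918.5 to 1573 CPM in TRAP and 584 to 1394 in INPUT.

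The 3 vesicular transporters are related genes, so their sequences show whether a read could be assigned to the wrong one. Over the coding sequence, Slc17a6 and Slc17a7 shared 72.3% of aligned bases, Slc17a6 and Slc17a8 71.6%, and Slc17a7 and Slc17a8 71.5%. The stretches below, 93 bases of each coding sequence (bases 232 to 324 of Slc17a6, 208 to 300 of Slc17a7 and 286 to 378 of Slc17a8, GENCODE transcripts), surround the longest run that Slc17a6 and Slc17a7 have in common, with its 21 bases in capitals. In Slc17a8 the capitals mark the bases of that run that are the same.
Slc17a6: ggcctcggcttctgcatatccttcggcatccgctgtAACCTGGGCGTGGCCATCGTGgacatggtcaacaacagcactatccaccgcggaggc
Slc17a7: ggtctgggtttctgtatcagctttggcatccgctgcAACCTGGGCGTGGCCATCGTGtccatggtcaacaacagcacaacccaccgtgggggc
Slc17a8: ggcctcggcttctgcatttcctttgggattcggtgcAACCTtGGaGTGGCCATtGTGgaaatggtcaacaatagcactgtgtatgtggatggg
Slc17a7 matched Slc17a6 at 78 and Slc17a8 at 72 of the 93 positions. The longest run shared by any pair of the 3 was 25 bases. Of 75-base windows, none of 5533 in Slc17a6 transcripts and none of 5828 in Slc17a7 transcripts occurred in the transcripts of another gene, and for Slc17a8 the share was 0.215%.

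Slc17a6 lies on chromosome 7 at 51622006 to 51671119 (GRCm38, plus strand) and Slc17a7 on the same chromosome and strand at 45163949 to 45176142, while Slc17a8 is on chromosome 10 at 89574020 to 89621253 (minus strand). The 250 bases before the RefSeq start sites of Slc17a6 and Slc17a7, which rose together, and of Slc17a8, which did not pass the test, are shown from GRCm38.p6. They span chr7:51621580-51621829 (plus strand), chr7:45163671-45163920 (plus strand) and chr10:89621250-89621499 (minus strand, printed 5′ to 3′), and for Slc17a6 and Slc17a8, where 2 start sites were listed, the more upstream one was taken. Capitals mark every CANNTG, the E-box pattern recognised by basic helix-loop-helix factors, which reads the same on both strands.
Slc17a6: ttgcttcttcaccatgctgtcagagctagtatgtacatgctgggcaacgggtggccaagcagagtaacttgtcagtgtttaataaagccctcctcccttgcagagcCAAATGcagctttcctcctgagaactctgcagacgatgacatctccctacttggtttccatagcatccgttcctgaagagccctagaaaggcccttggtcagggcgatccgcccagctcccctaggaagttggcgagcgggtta
Slc17a7: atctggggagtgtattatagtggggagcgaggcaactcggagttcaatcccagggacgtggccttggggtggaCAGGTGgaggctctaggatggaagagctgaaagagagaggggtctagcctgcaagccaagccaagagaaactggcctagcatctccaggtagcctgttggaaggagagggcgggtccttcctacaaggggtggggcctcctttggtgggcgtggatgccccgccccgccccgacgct
Slc17a8: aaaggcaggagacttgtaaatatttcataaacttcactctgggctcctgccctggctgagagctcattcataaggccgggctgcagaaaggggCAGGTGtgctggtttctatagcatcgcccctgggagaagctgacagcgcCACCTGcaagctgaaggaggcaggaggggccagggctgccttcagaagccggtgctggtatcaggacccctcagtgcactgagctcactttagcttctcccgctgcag
Slc17a6 and Slc17a7 held 1 match each and Slc17a8 held 2, and 66.2% of 32851 promoter windows of the same length held at least 1. A match is a description of these letters and not a binding site.

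Of the 8 genes, 4 were higher in TRAP (Slc17a6, Slc17a7, Slc1a1 and Got1), 1 was lower (Glul) and 3 did not pass the test (Slc17a8, Slc1a2 and Glud1), with limma and a Benjamini-Hochberg adjusted p under 0.05 over 14249 tested genes. Across all tested genes 23.2% were higher and 24.8% lower. With the pool as a block, the same 5 genes passed, against 15.4% higher and 16.8% lower of all genes. The median log2 fold change was 0.64 over the 8 genes and −0.05 over all tested genes. The 5 genes that passed were also those whose TRAP and INPUT libraries did not overlap, 4 above and 1 below, where 23.3% of all genes were above and 24.4% below without overlap. For each of them the exact two-sided permutation test of 4 against 4 libraries gave p = 0.029, the smallest that test can give. It takes the 8 libraries as independent, whereas a sign-flip test within the 4 pools cannot go below 0.125.

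**Figure D1:**
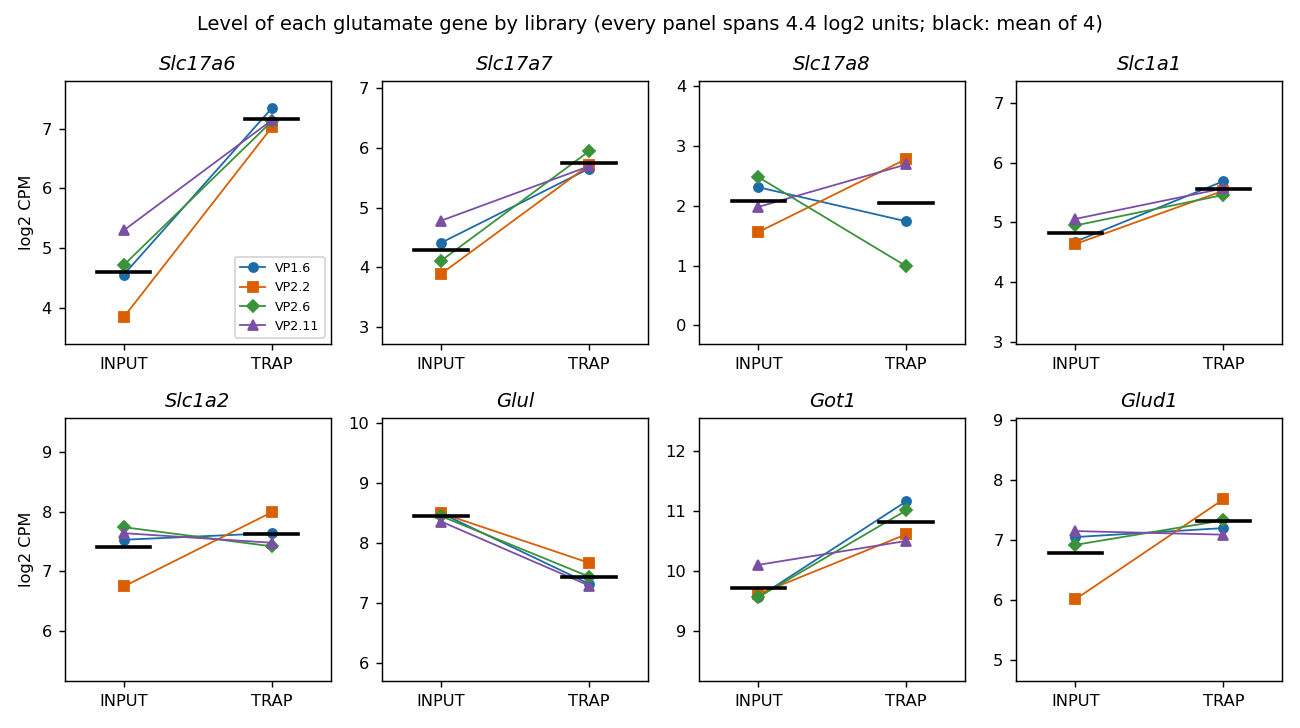
Log2 CPM of the 8 genes in each INPUT and TRAP library, 1 panel a gene, with a line and symbol for each of the 4 pools and a black bar for the mean of 4. All 4 lines climb for Slc17a6, Slc17a7, Slc1a1 and Got1 and all 4 fall for Glul, while those of Slc17a8 cross and those of Slc1a2 and Glud1 are carried mainly by pool VP2.2.

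Slc17a6, the gene at which Cre sits, was the first check of the pull-down. In TRAP it stood at 162 CPM in VP1.6, 130.1 in VP2.2, 139 in VP2.6 and 141 in VP2.11, and values of the other genes follow the same order of pools. The INPUT libraries of the same pools held 23.6, 14.4, 26.3 and 39.4 CPM. Every TRAP library was thus above every INPUT library, with the TRAP values close together and the INPUT values spread. The log2 fold change was 2.55 (SE 0.25, n = 4 pools, limma adjusted p = 8.8e-05), which is 5.85-fold and ranked 46 of 14249 genes from the top. Within pools the log2 difference ran from 1.84 in VP2.11 to 3.17 in VP2.2.

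Slc17a7, the cortical vesicular transporter, was higher in TRAP as well. Its TRAP values were 50.1, 52.4, 61.5 and 51.6 CPM and its INPUT values 21.3, 14.8, 17.3 and 27.5 CPM. The lowest TRAP library was therefore well above the highest INPUT library. TRAP exceeded INPUT by 1.45 on the log2 scale (SE 0.19, limma adjusted p = 2.9e-04), or 2.73-fold, with differences of 0.91 to 1.83 in the 4 pools. With the pool as a block the limma adjusted p was 6.2e-04. All 4 listed markers of pallial glutamatergic neurons, transcription factors of the developing and adult cortex, moved the same way in both fits, with log2 fold changes of 3.16 for Tbr1, 2.49 for Neurod6, 2.13 for Neurod2 and 2.58 for Emx1. Their summed level was 106 to 200 CPM in TRAP and 15.8 to 34.4 in INPUT, with Emx1 the lowest at 4.12 CPM in TRAP and 0.641 in INPUT. The part of such cells in the Slc17a7 difference was not tested.

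Slc17a8 was the least abundant of the 8 genes and did not differ beyond its spread. TRAP held 3.34 CPM in VP1.6, 6.85 in VP2.2, 1.99 in VP2.6 and 6.45 in VP2.11. INPUT held 4.96, 2.94, 5.58 and 3.94 CPM. The fractions overlapped, with TRAP higher in VP2.2 and VP2.11 and lower in the other 2 pools. Its log2 fold change was −0.03 (SE 0.40, limma adjusted p = 0.95), with a 95% confidence interval of −0.92 to 0.86 that leaves room for a change of nearly 1 log2 unit in either direction.

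**Figure D2:**
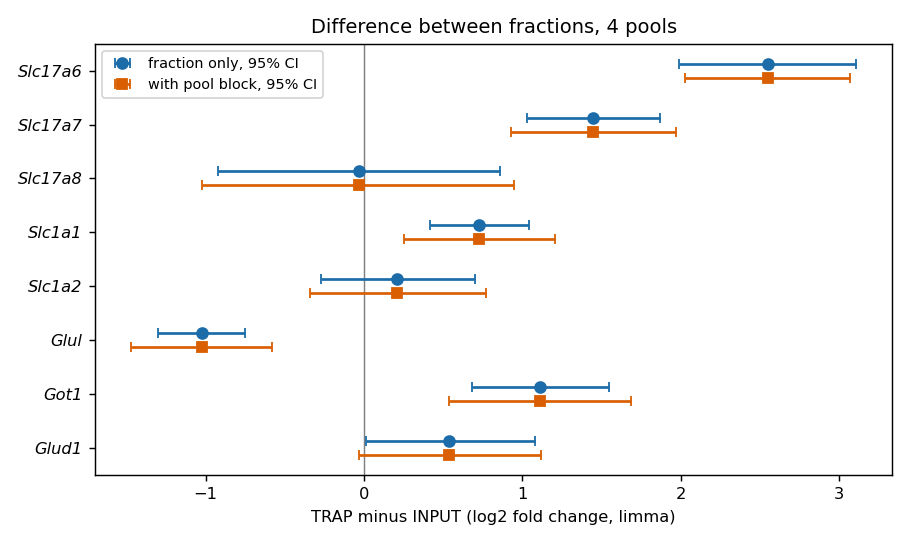
TRAP minus INPUT log2 fold change of each gene from limma with its 95% confidence interval, over 4 pools, with fraction as the only term (circles) and with a block for the pool added (squares). The intervals of Slc17a6, Slc17a7, Slc1a1 and Got1 lie above 0 and that of Glul below 0 in both fits, those of Slc17a8 and Slc1a2 span 0, and that of Glud1 starts at 0.01 without and −0.03 with the block.

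The balance among the 3 vesicular transporters was compared inside each library, per kilobase of merged exons, so that depth and library scaling cancel. Slc17a6 was 3.24, 2.48, 2.26 and 2.73 times as abundant as Slc17a7 per kilobase in the 4 TRAP libraries. In INPUT the same ratio was 1.11, 0.974, 1.52 and 1.43. The ratio was thus higher in TRAP in 4 of 4 pools without overlap. On the log2 scale the difference between the genes was 1.41 ± 0.22 in TRAP and 0.31 ± 0.30 in INPUT (SD, n = 4), a gap of 1.10. Slc17a6 over Slc17a8 was 4.91 ± 0.91 in TRAP, or 30.1-fold, and 2.33 ± 0.53 in INPUT, or 5.03-fold, a gap of 2.58. Slc17a7 over Slc17a8 was 3.51 ± 0.95 and 2.02 ± 0.49, a gap of 1.48 that ran from 0.20 to 3.31 in the 4 pools and was 0.87 without VP2.6. Each of these 3 gaps had an exact two-sided permutation p of 0.029, the smallest that test can give. Adjustment over 4 such comparisons, with Glul over Slc1a2 as the other, could not change it, as all 4 were at that floor. When signs were flipped within the 4 pools, p was 0.125, the smallest p that test can give.

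As a share of the 3 transporters per kilobase, Slc17a6 made up 75.1%, 68.3%, 68.6% and 70.5% in the TRAP libraries, with a mean of 70.6% ± 3.11 (SD, n = 4). In INPUT its mean was 49.7% ± 5.08. Slc17a7 had 26.7% ± 2.99 in TRAP and 40.2% ± 4.65 in INPUT, and Slc17a8 had 2.67% ± 1.46 and 10.15% ± 2.75. The Slc17a7 share was thus lower in TRAP although its level was higher, since Slc17a6 was higher by more.

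**Figure D3:**
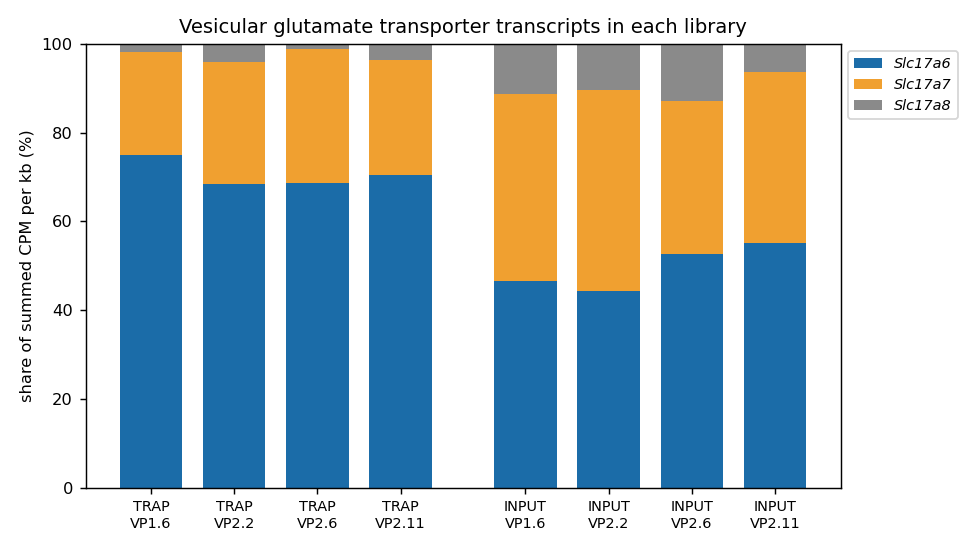
Share of Slc17a6, Slc17a7 and Slc17a8 in their summed CPM per kilobase of merged exons, in percent, 1 stacked bar for each of the 4 TRAP and 4 INPUT libraries. Slc17a6 takes 68.3% to 75.1% of each TRAP bar and Slc17a8 is the thinnest segment of every bar.

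Slc1a1, the neuronal glutamate transporter, was 51.6, 46.2, 44.1 and 47.5 CPM in TRAP and 25.6, 25.0, 31.0 and 33.4 CPM in INPUT. All TRAP libraries were above all INPUT libraries. The log2 fold change was 0.73 (SE 0.14, limma adjusted p = 0.002, and 0.023 with the pool block), or 1.66-fold, and with the trend on exon length removed it was 0.37 with an adjusted p of 0.13. Of its 75-base windows 30.4% also lay in 4430402I18Rik, a gene annotated on the opposite strand, and the strand setting of the counting was not given in the sources used here. That gene had 1.71 ± 1.18 CPM in TRAP and 4.04 ± 0.833 in INPUT, opposite in direction to Slc1a1 and far lower, so the Slc1a1 level is uncertain for reads in the overlap.

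Slc1a2 encodes GLT-1, the main transporter by which astrocytes clear glutamate. Its TRAP values were 199, 253.5, 171 and 178.5 CPM and its INPUT values 185, 108, 214 and 199.5 CPM. The fractions overlapped and the pools disagreed, with log2 differences of 0.11 in VP1.6, 1.23 in VP2.2, −0.32 in VP2.6 and −0.16 in VP2.11. The log2 fold change was 0.21 (SE 0.22, limma adjusted p = 0.44, 95% confidence interval −0.27 to 0.70), and without VP2.2 it was −0.13.

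Glul, the other gene of the list known for astrocytes, was the only one of the 8 that fell. It stood at 159.7, 204, 173 and 156.5 CPM in TRAP and at 362, 362, 351 and 329 CPM in INPUT. Every INPUT library was above every TRAP library, and the INPUT values were within a narrow range. The log2 fold change was −1.02 (SE 0.13, limma adjusted p = 2.1e-04), 2.03-fold lower in TRAP, with differences of −1.18 to −0.83 in the pools. With the pool as a block the SE was 0.21 and the limma adjusted p 0.0022. Of its windows 6.63% occurred in other genes, chiefly its processed copy Glns-ps1, which had a log2 fold change of −1.53 and only 6.47 ± 1.20 CPM in INPUT.

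Glul and Slc1a2 are both used by astrocytes and were set side by side after their values were seen. Per kilobase, the log2 difference of Glul over Slc1a2 was 1.78 ± 0.16 in TRAP and 3.02 ± 0.49 in INPUT (SD, n = 4). The gap was −1.24 and ran from −2.06 in VP2.2 to −0.69 in VP2.6. Its permutation p entered the adjustment over 4 comparisons above. That p is not read as a result, since the pair was picked by its values. With the trend on exon length removed, Glul was at −0.97 and Slc1a2 at −0.33 on the log2 scale. Of 7 listed astrocyte markers, 5 fell in both fits, from −1.10 for Aqp4, the water channel of astrocyte endfeet, to −3.00 for S100b, a calcium-binding protein. Aldh1l1 and Aldoc, metabolic enzymes, did not pass, at −0.27 and −0.09. Summed over the 7, the level was 1226 to 1663 CPM in TRAP and 1640 to 2226 in INPUT, mostly Aldoc. The other 6 had mean levels of 17.5 to 31.5 CPM in TRAP and 37.8 to 212 CPM in INPUT. Slc1a3 encodes the second astrocyte glutamate transporter, GLAST. It fell by 1.12 on the log2 scale (limma adjusted p = 0.0015, and 0.0035 with the pool block), from 174 ± 35.7 to 80.6 ± 22.2 CPM. The part of astrocyte RNA in these values was not tested.

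**Figure D4:**
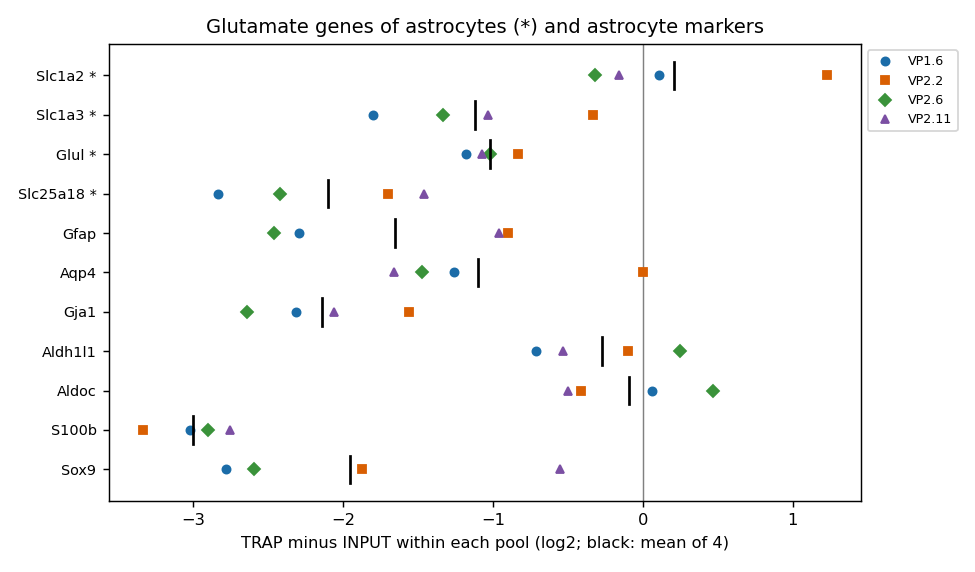
TRAP minus INPUT log2 difference in each of the 4 pools (symbols) and its mean (black bars) for 4 glutamate genes known from astrocytes (starred) and the 7 astrocyte markers. Glul, Slc1a3 and Slc25a18 lie below 0 in every pool with most markers, whereas Slc1a2 lies around 0 with VP2.2 at 1.23, beside Aldh1l1 and Aldoc.

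Got1 moves an amino group between glutamate and aspartate in the cytosol and was the most abundant of the 8 genes. TRAP held 2294, 1566, 2067 and 1448 CPM and INPUT held 755, 782, 756 and 1097 CPM. The fractions did not overlap, with the highest INPUT value and the lowest TRAP value both in VP2.11. In log2 units TRAP was higher by 1.11 (SE 0.20, limma adjusted p = 0.0013), or 2.16-fold. The difference was highest in VP1.6, was 1.45 in VP2.6 and was lowest, at 0.40, in VP2.11. With the pool block the limma adjusted p was 0.0063 and, without VP1.6, 0.06.

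Glud1, the mitochondrial enzyme that links glutamate to the citric acid cycle, was 147, 206, 161 and 136 CPM in TRAP and 132.5, 64.6, 121 and 142 CPM in INPUT. The groups overlapped by VP2.11 alone, where TRAP was below INPUT. Its log2 fold change was 0.54 (SE 0.24, limma adjusted p = 0.087). Within pools VP2.2 had the highest value at 1.67, and without VP2.2 the log2 fold change was 0.17. Of the 75-base windows of Glud1, 4.62% also occurred in other genes, Gm43444 and Glud-ps. The INPUT library of VP2.2 was the lowest of the 4 for 6 of the 8 genes, and its TRAP library the highest of the 4 for 4 of them. The share over all genes was not counted, so these counts are not read as a trait of the 8. Over all genes the median log2 CPM was 3.88 in INPUT VP2.2 and 3.98 to 4.04 in the other INPUT libraries.

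Levels of different genes were compared as CPM per kilobase of merged exons. In TRAP the order was Got1 at 726 ± 159, Glul at 52.2 ± 6.54, Glud1 at 38.6 ± 7.23, Slc17a6 at 26.5 ± 2.52, Slc1a2 at 15.3 ± 2.84, Slc17a7 at 9.99 ± 0.955, Slc1a1 at 5.74 ± 0.385 and Slc17a8 at 0.987 ± 0.503 (SD, n = 4). By this length only Glul and Glud1 had overlapping ranges among neighbours, and Glul was above Glud1 in each of the 4 libraries. In INPUT the order was Got1 at 334 ± 65.8, Glul at 105.5 ± 4.73, Glud1 at 27.3 ± 8.26, Slc1a2 at 13.4 ± 3.60, Slc17a6 at 4.80 ± 1.91, Slc17a7 at 3.75 ± 1.02, Slc1a1 at 3.48 ± 0.496 and Slc17a8 at 0.923 ± 0.245. There, Glud1 and Slc1a2, Slc17a6 and Slc17a7, and Slc17a7 and Slc1a1 overlapped. Slc17a6 was thus among the genes that INPUT did not separate from Slc17a7, and it passed Slc1a2 in TRAP. Close ranks depend on the length used. The longest transcript is 3080 bases against 5392 of merged exons for Slc17a7, and 3800 against 8257 for Slc1a1. For Slc1a2 it is 11595 against 13133. The order by longest transcript was not worked out, so both orders hold for merged exons only.

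A further 36 genes that supply, carry or use glutamate were listed beside the 8, of which 30 had values and 29 were tested. In TRAP 12 were higher and 5 lower, beside 23.2% and 24.8% of all tested genes, and with the pool block 10 and 4, beside 15.4% and 16.8%. The same shares stand beside the counts of the smaller groups below, which hold only 2 to 8 tested genes each. The median log2 fold change of the 29 was 0.11. Slc38a5, a glutamine transporter, was under the level filter. Slc1a5, Slc1a7, Slc17a1, Slc17a2, Slc17a3 and Slc17a4 were not analysed here.

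In the supply of glutamine and its conversion to glutamate, 2 of 6 tested genes rose and none fell, and 1 rose with the block. Slc38a1, a neuronal glutamine transporter, had the highest fold change of the list, from 97.6 ± 26.6 CPM in INPUT to 249 ± 25.8 in TRAP, with log2 differences of 0.71 to 1.96 in the 4 pools and a mean of 1.39 (limma adjusted p = 4e-04). With the block the limma adjusted p of Slc38a1 was 6.2e-04. Slc38a2, another of that family, was higher by 0.54 in the fit without the block only. Gls2, the liver-type glutaminase, was at 0.47 with a limma adjusted p of 0.052, and Slc38a3, the glutamine transporter by which astrocytes release glutamine, was at −0.07 with pool differences of −1.29 to 1.32.

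Among the other plasma membrane carriers of glutamate, cystine and related amino acids, 1 of 5 rose and 1 fell. Slc1a4, a carrier of alanine, serine and cysteine from the same family as Slc1a1, was the one that rose. Its rise was 0.74 on the log2 scale (limma adjusted p = 0.0041, and 0.04 with the block). Slc1a3, described above, was the one that fell. Slc7a11 and Slc3a2, the subunits of the cystine-glutamate exchanger, were at 0.20 and 0.11 and did not pass.

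The malate-aspartate shuttle and the mitochondrial glutamate carriers, which pass reducing power and glutamate across the inner mitochondrial membrane, had 5 of 8 genes higher and 2 lower, and 4 and 1 with the block. Of all tested genes 23.2% were higher and 24.8% lower, and 15.4% and 16.8% with the block. Mdh1 and Mdh2, the cytosolic and mitochondrial malate dehydrogenases, were higher by 1.23 and 1.20, Slc25a12, the aspartate-glutamate carrier aralar of neurons, by 0.92, and Got2, the mitochondrial partner of Got1, by 0.86. Got2 showed the same order of pools as Got1, with its highest difference in VP1.6 at 1.59 and its lowest in VP2.11 at 0.06. The carriers of glutamate itself split: Slc25a22 was higher by 0.56 (limma adjusted p = 0.0042, and 0.053 with the block), and Slc25a18, the form known from astrocytes, had the lowest fold change of the list at −2.10, from 38.4 ± 8.26 CPM in INPUT to 9.08 ± 2.68 in TRAP. Slc25a11, the malate-oxoglutarate carrier, was at −0.36 and passed only without the block.

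Of 8 other enzymes that form or use glutamate, 3 rose and 2 fell in both fits. Bcat1, the cytosolic branched-chain aminotransferase, was higher by 0.84, Oat, ornithine aminotransferase, by 0.74, and Aldh18a1, which starts proline synthesis from glutamate, by 0.78. Psat1, an aminotransferase of serine synthesis, was lower by a log2 of −1.10 and Gpt, an alanine aminotransferase, by −1.16. Among the remaining SLC17 genes, Slc17a5, the lysosomal sialic acid transporter sialin, was higher by 0.84 (limma adjusted p = 0.0091, and 0.043 with the block). Slc17a9, the vesicular nucleotide transporter, was at −0.25 with pool differences from −3.73 to 3.16.

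**Figure D5:**
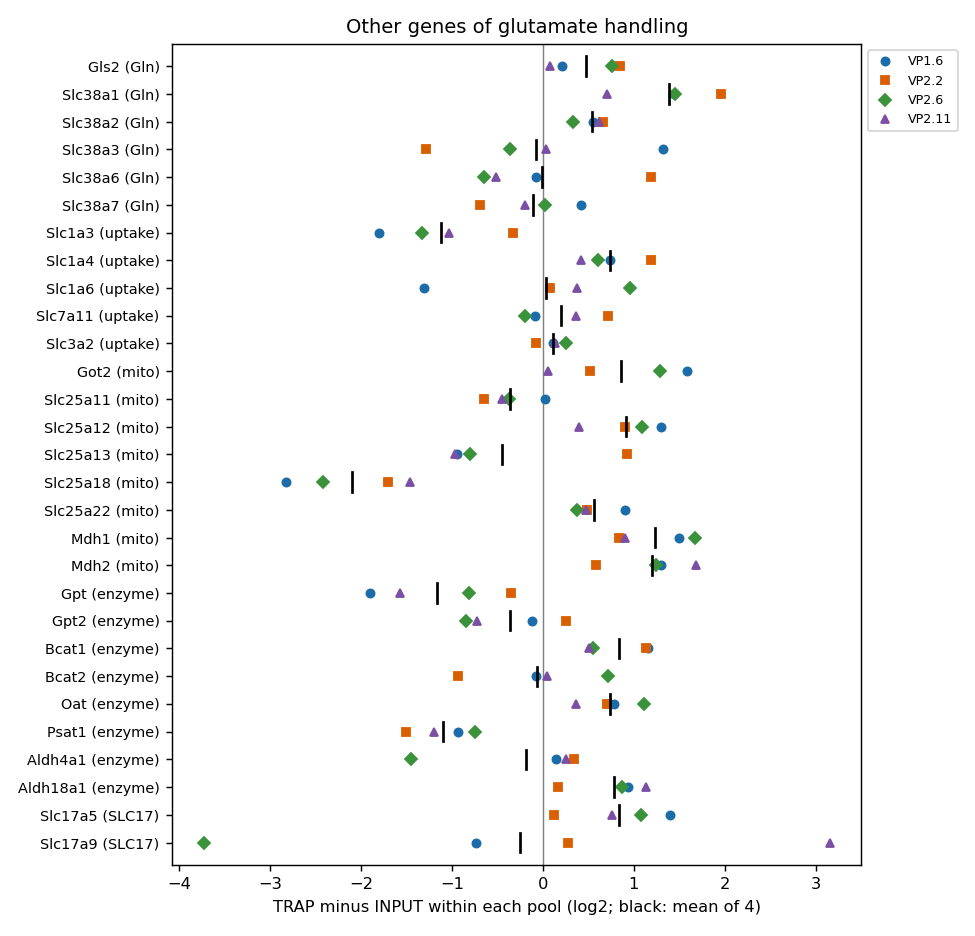
TRAP minus INPUT log2 difference in each of the 4 pools (symbols) and its mean (black bars) for the 29 tested genes of glutamine supply (Gln), plasma membrane carriage (uptake), mitochondrial carriage and shuttle (mito), other enzymes and SLC17 transporters. By its mean, Slc38a1 lies furthest to the right and Slc25a18 furthest to the left, and the pools of Slc17a9 are widest apart.

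The tested genes whose profiles over the 8 libraries lay closest to 3 of the members were named by the root mean square distance between log2 values, each centred on its own mean. For Slc17a6 they were Chl1 (0.15), Nwd2 (0.16), Mab21l1 (0.17), Bdnf (0.18) and Smc1a (0.19), with log2 fold changes of 2.30 to 2.61. For Slc17a7 they were Fam13a (0.07), Lrrc6 (0.08), Wdr3 (0.09), Zc3h13 (0.10) and Igfbp5 (0.11). For Slc1a2, 4 of the 5 were Usp34 (0.05), Spag9 (0.05), Sos1 (0.06) and Nckap1 (0.07), each of which had its highest pool difference in VP2.2, between 1.12 and 1.29. The likeness covers the pool differences as well as the fraction and rests on 8 libraries.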

How the data were processed

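The authors aligned reads with STAR 2.5.1a to the mouse genome (Ensembl annotation on GRCm38), counted them per gene with featureCounts, dropped ribosomal and low genes and applied TMM size factors in edgeR before limma with voom quality weights. The deposited values are log2 CPM per gene and library, and in 3 of the 8 columns (both VP2.11 libraries and the INPUT of VP1.6) they carry 3 significant digits. The authors' own fold changes and p-values in the same table were not used. The 14398 entries named 14353 genes, and 45 repeats held the same values. The 8 genes, the other gene lists and the tests were chosen with earlier results of these data known.

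Log2 values were tested with limma 3.58.1 in R 4.3.3 (fraction as the only term, trended prior), over the 14249 genes above 1 CPM in at least 3 libraries, with adjusted p under 0.05. Log2 values were turned back to CPM for levels, and divided by merged exon length (GENCODE, GRCm38) for comparisons between genes. Within-library ratios were tested by exact permutation (Python 3.11.15, scipy 1.17.1). A simulation with known changes was used to test the scripts. The main alternative adds the pool as a block: the labels give both fractions of a pool 1 name, as parts of 1 lysate. Same-pool deviations from the fraction means correlated at −0.745 to −0.495, against 0.0457 to 0.441 between pools. Pools are separate groups of mice, and the main p-values rest on the spread between pools within each fraction. They take no account of the same-pool correlation. With the block the SE was higher for each of the 8 genes except Slc17a6, where it was 0.24 against 0.25. For Glul it went from 0.13 to 0.21 and for Slc1a1 from 0.14 to 0.23. Depth was recovered from steps of whole reads in 85.0% of 1198 and 96.0% of 1280 low genes in VP2.2 and VP2.6, and is unknown for the other 2 pools, where that pattern was not found. Named were all 8 genes, listed pathway genes called in both fits or at the ends of that list, and the 5 closest profiles of Slc17a6, Slc17a7 and Slc1a2. Other pathway genes named were picked after their values were seen, and a few genes of these lists are not reported here.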

Additional observations from a re-analysis of the deposited data

Results flagged for a closer look

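Among 24 groups of 4 libraries or within-library differences, 2 had a single library whose distance from the remaining 3 passed Dixon's 95% limit, where chance gives about 1.2. Got1, the cytosolic aspartate aminotransferase, was at a log2 CPM of 10.1 in INPUT VP2.11 and at 9.56 to 9.61 in the other INPUT libraries. The per-kilobase log2 difference of Slc17a6 over Slc17a8 was 3.13 in INPUT VP2.11 and 2.05 to 2.10 in the other INPUT libraries. Without VP2.11 the gap of that difference between TRAP and INPUT was 3.07, against 2.58 with it.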

How the results depend on the processing

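The pool block changed no call among the 8 genes and moved the count over all genes from 6830 to 4592. With the trend on exon length removed in the fit with the block it was 4553, with a log2 change of at least 1 required 3528, and leaving out 1 pool in either fit 3232 to 6894. Leaving out 1 pool left 3 to 5 of the 8 genes called, with the lowest count in the block fit without VP1.6. Of the other pathway genes 17 were called, 5 to 18 when a pool was left out (in the block fit 5 without VP1.6, 7 without VP2.6 and 11 without VP2.11), and 7 with a log2 change of at least 1. Slc17a6, Slc17a7 and Glul kept their call in all 17 alternatives. In the block fit Got1 lost its call without VP1.6 (adjusted p 0.06) and Slc1a1 without VP1.6 (0.14) and VP2.6 (0.066), and Slc1a1 also with the length trend removed (0.13, and 0.18 with the block). Slc17a8 moved to −0.681 with array weights (adjusted p 0.07) and −0.612 with array weights and the block, turned to 0.004 when libraries were centred on the median gene and ran from −0.45 to 0.45 when a pool was left out, being above 0 without VP1.6 and VP2.6. Slc1a2 turned to −0.059 with array weights, −0.007 with array weights and the block and −0.33 with the length trend removed, with or without the block, and ran from −0.13 to 0.39 when a pool was left out. With the longest transcript as length, Slc17a6 over Slc17a7 in TRAP was 0.98 and the Slc17a6 share 65.0%. In the within-pool sign-flip test (the pairing by pool) the gaps of 1.10 for Slc17a6 over Slc17a7 and 2.58 over Slc17a8 had p = 0.125, and with a pool left out they were 0.95 to 1.28 and 2.15 to 3.07, and that of Slc17a7 over Slc17a8 0.87 to 1.91, with exact permutation p of 0.1, the smallest possible with 3 pools. The causes were not tested. Counts behind the values are not given, and read totals were estimated only for VP2.2 and VP2.6. Precision from depth was not worked out for Slc17a8, the lowest gene, and is unknown for it in VP1.6 and VP2.11.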
